A study of Mus musculus with 6 samples.

Results

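Nog, Chrd, Chrdl1, Chrdl2, Grem1, Fst, Fstl1, Bmper, Twsg1 and Nbl1 encode secreted proteins that bind bone morphogenetic proteins (BMPs) or their relatives outside the cell, or act on those that do. They were chosen by name from the gene column of the array files. All 10 were found, out of 35077 gene names, on 13 of 55672 probes. Chrd had 2 probes, Chrdl1 had 3 and each of the other 8 genes had 1.

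BMPs signal through paired serine and threonine kinase receptors, which activate Smad transcription factors. Secreted antagonists hold the ligand away from these receptors, and some of them, such as chordin, are cut by tolloid proteases, which sets the ligand free again. In the mouse limb, joints form at interzones, bands of flattened cells between cartilage elements, and joints fail to form in mice that lack Nog. The outer interzone lies beside the cartilage and the intermediate interzone lies between the outer layers.

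The study measured RNA of the outer interzone (3 arrays) and of the intermediate interzone (3 arrays) of mouse embryos at 15.5 days of gestation. One embryo was 1 biological replicate, and the tissue was labelled only as embryo. Strain, sex, joint and the way in which the layers were separated are not given in the sources used here. Total RNA was amplified, labelled with Cy3 and hybridised to 1-colour Agilent arrays with 60-base probes. Levels below are log2 ratios of a probe's processed signal to its array's 75th percentile, so 0 is the signal at that percentile, and differences are outer minus intermediate. In such bulk samples, fewer cells of a type and less RNA per cell cannot be told apart.

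The arrays differed in brightness. The 75th percentile was 47.4, 290 and 150 signal units on outer arrays 1, 2 and 3, against 144, 265 and 344 on intermediate arrays 1, 2 and 3. Outer array 1 was the dimmest, where 35.6% of probes exceeded background clearly (the scanner's well-above flag), against 45.1% to 53.4% elsewhere. It shared a slide with the 3 intermediate arrays, while outer arrays 2 and 3 were on a second slide. No spot was saturated. The tissue label was checked with Gdf5, the joint ligand that marks interzones, which stood at 4.69, 6.81 and 5.57 in the outer interzone, against 5.25, 6.72 and 5.12 in the intermediate. Gdf5 carried the flag for clear signal on 6 of 6 arrays and its levels overlapped between the layers. Col2a1, a chondrocyte marker, was the other check. It stood at 9.28, 8.69 and 8.65 in the outer interzone, against 5.72, 6.33 and 4.98 in the intermediate, without overlap.

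Each value reports only the stretch of transcript that its probe matches. The following runs are bases 31 to 60 of the 60-base probes, 5′ to 3′ as in the deposited files. They are shown for the member that passed the test, for the genes with several probes, and for Nog, Fst and Nbl1. The layers of these last genes did not overlap, nor did those of Fstl1, whose probe is not shown. Capitals mark AATAAA, the canonical polyadenylation signal near a transcript's 3′ end. Whether a marked run acts as such a signal was not tested.
Bmper, A_51_P488196: tcatggtgtataaaatgaaagccttcggct
Nog, A_51_P237040: accttctgcccggtgctgtacgcgtggaat
Chrd, first probe, A_51_P215975: cgcagtagagacctccccagcctaccaaat
Chrd, second probe, A_55_P2164689: atacacataAATAAAatgatataaaaaccc
Chrdl1, first probe, A_66_P124091: taggcaggagcatattctaggaatgatatg
Chrdl1, second probe, A_55_P1955627: tttatgtagtcactgtgtttctggaatttt
Chrdl1, last probe, A_55_P2123683: tccatcatttcaagctagttactcggacca
Fst, A_55_P2394308: ggcaaaacgaaacacaacaaAATAAAtaat
Nbl1, A_51_P244492: cccctggacccgagtgttttcatgAATAAA

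Over their whole length and on the printed strand only, 3 of the 13 probes held AATAAA or the variant ATTAAA, against 13.7% of all 55672 probes. These were the second Chrd probe and the Fst and Nbl1 probes. GC content ran from 35% to 55% (median 40%), and each of the 13 sequences stood once on the array. The coordinates below are on mm9, as in the files, and exon or UTR was not analysed here.

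Of the 10 genes, 1 rose in the outer interzone, Bmper, and 0 fell. Over all 18004 genes tested, 4.05% passed in either direction, 1.57% higher and 2.48% lower in the outer interzone (limma, Benjamini-Hochberg adjusted p under 0.05). In 6 of the 10 the 3 outer values lay wholly on one side of the 3 intermediate values, above for Nog, Fst and Bmper and below for Chrdl1, Fstl1 and Nbl1, against 27.1% of all genes (15.6% above, 11.5% below). The unadjusted limma p was under 0.05 for 5 of 10, against 21.1% of all genes. The median difference was 0.16 over the 10 genes and 0.10 over all genes. Testing required a probe with the well-above flag on every array of at least 1 layer. Bmper met this only in the outer interzone, and Chrd, Chrdl1 and Chrdl2 only in the intermediate interzone, so the filter bears on the direction of these 4. The other 6 genes carried the flag on 6 of 6 arrays.

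**Figure D1:**
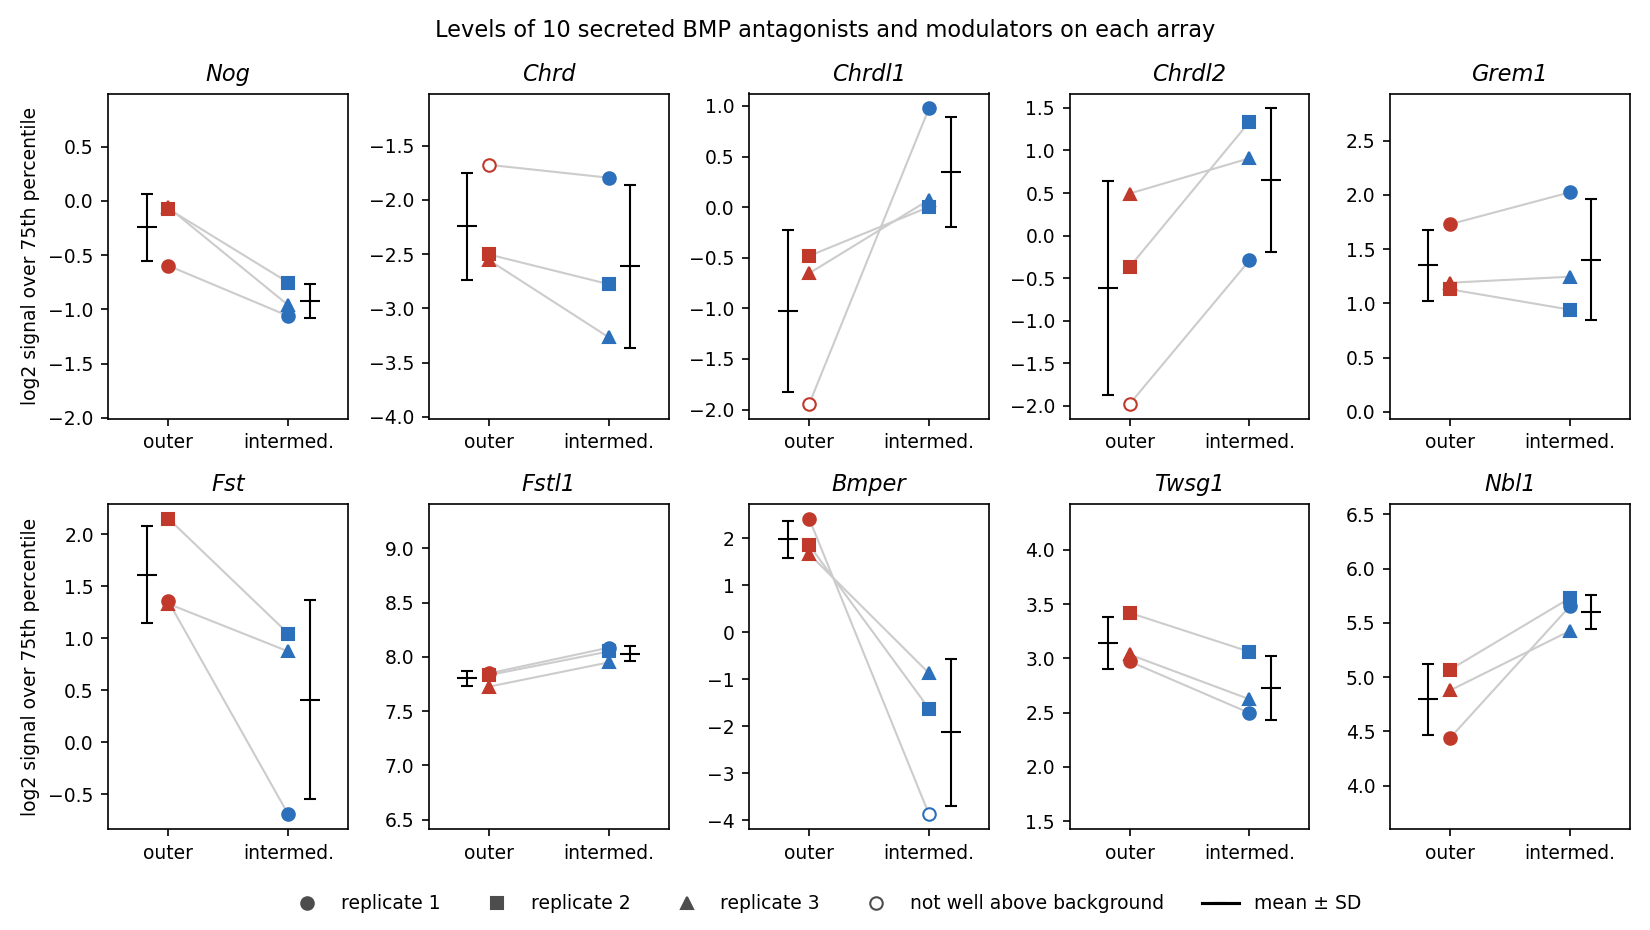
Levels of the 10 genes (y axis, log2 signal over the array's 75th percentile, own range per panel) in outer (left) and intermediate (right) interzone, with 3 arrays per layer. Points are arrays, the mean and SD are drawn per layer, open points are not well above background and grey lines join arrays of the same replicate number; Bmper is the gene with the widest separation, at 1.67 to 2.42 in outer against -3.87 to -0.87 in intermediate.

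Bmper, also called crossveinless-2, encodes a secreted protein with cysteine-rich repeats like those of chordin, which binds BMPs and chordin and can inhibit or promote signalling. Its probe lies at chr9:23289301-23289360 on the plus strand. The level was 2.42, 1.86 and 1.67 on outer arrays 1, 2 and 3, against -3.87, -1.62 and -0.87 on intermediate arrays 1, 2 and 3. The signal on intermediate array 1 was not well above background, and the layers did not overlap. Means were 1.98 ± 0.39 in the outer interzone, against -2.12 ± 1.56 in the intermediate (SD, n = 3 each). Bmper was higher in the outer interzone, with a log2 difference of 4.10 (SE 0.72, 95% interval 2.41 to 5.80, limma adjusted p = 0.0311), or 4.01 above the median of all genes. Within same-numbered arrays the difference was 6.29, 3.48 and 2.54. Without intermediate array 1, its lowest value, it was 3.23 (adjusted p = 0.0358). The fitted fold was 17.2 with all arrays and 9.38 without that array. It was 6.21 with normexp background correction and quantile normalization together. The size of the fold thus varied with the arrays and the processing, and the reason was not tested.
With no filter, probe averaging or blocking on replicate number, the Bmper estimate stays 4.10 by design, so these settings cannot test its direction. The difference was positive in all 14 alternative settings with a value for Bmper (2.64 to 4.73), but the call held in 6. It was lost without outer array 1 (3.89, adjusted p = 0.0829), outer array 3 (4.26, 0.0931), intermediate array 2 (4.35, 0.0767) or intermediate array 3 (4.73, 0.0592), when slide was a block (4.54, 0.0502) and within slide 1 (4.54, 0.0563), where the outer layer is array 1 alone, assumed to vary like the intermediate arrays. Quantile normalization and the fit with no filter ended it as well.

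Noggin is a high-affinity trap that covers the receptor-binding surfaces of BMPs and GDFs. Its gene, Nog, was read by a probe at chr11:89162849-89162908 on the minus strand. The level was -0.60, -0.07 and -0.06 on the outer arrays and -1.06, -0.75 and -0.96 on the intermediate arrays. All 3 outer values lay above all 3 intermediate values, with means of -0.24 ± 0.31 in the outer interzone, against -0.93 ± 0.16 in the intermediate (SD, n = 3 each). The difference of 0.68 (SE 0.21, 95% interval 0.18 to 1.18) did not pass the test over all genes (limma adjusted p = 0.132). It was positive in all 15 alternative settings, 0.29 to 0.86, and passed in 0 of them.

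Chordin and its 2 chordin-like relatives carry repeats that bind BMPs. Chrd had levels of -1.68, -2.50 and -2.55 in the outer interzone, against -1.79, -2.78 and -3.27 in the intermediate on the first probe (chr16:20739049-20739221, plus strand). The layers overlapped, outer array 1 was not well above background, and the difference was 0.37 (95% interval -0.62 to 1.36, limma adjusted p = 0.65). Scaling each array to its median gave -0.02, so the direction of Chrd depends on the scaling. The second Chrd probe, assigned to another transcript (chr16:20738166-20738225), was well above background on 2 arrays of each layer and was not tested.

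Chrdl1 had levels of -1.95, -0.48 and -0.65 on the outer arrays and 0.98, 0.00 and 0.07 on the intermediate arrays, on the first probe (chrX:139732534-139732593, minus strand). All outer values were below all intermediate values, and outer array 1 was not well above background. The difference of -1.38 (SE 0.45, 95% interval -2.43 to -0.32) did not pass (limma adjusted p = 0.146). A slide block gave -2.30, which passed (limma adjusted p = 0.0293), as it did within slide 1 (adjusted p = 0.0355), and in both the outer layer is represented by array 1 alone. The second and last probes (chrX:139720248-139720307 and chrX:139725644-139725703), both assigned to another transcript than the first, were well above background on 1 of 3 outer arrays each, and entered the test through the intermediate interzone. They differed by -1.43 and -1.20 in the fit over all probes (limma adjusted p = 0.0946 and 0.433), and the layers overlapped on the last. The slide block gave -0.87 for the second probe and 0.44 for the last (limma adjusted p = 0.276 and 0.747), so the probes of Chrdl1 went apart in that fit. Blocking on replicate number, the second probe passed (limma adjusted p = 0.0428). It also passed when each array was scaled to its median (-1.82, limma adjusted p = 0.019).

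Chrdl2 had levels of -1.98, -0.37 and 0.49 in the outer interzone, against -0.29, 1.34 and 0.91 in the intermediate (chr7:107183146-107183205, plus strand). The layers overlapped, and outer array 1 was again not well above background. The difference was -1.27 (95% interval -2.87 to 0.33, limma adjusted p = 0.332), with outer arrays ranging over more than 2 log2 units. It was -0.59 without outer array 1 (adjusted p = 0.595), and -2.63 with a slide block (limma adjusted p = 0.0609), where the outer layer rests on that array alone.

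Grem1 and Nbl1 (also called Dan) belong to the DAN family of cystine-knot antagonists. Grem1, which in the limb bud sustains outgrowth by restraining BMPs, had levels of 1.73, 1.13 and 1.19 in the outer interzone, against 2.02, 0.94 and 1.25 in the intermediate (chr2:113589227-113589286, minus strand). The values overlapped, and the difference of -0.05 had a 95% interval of -0.81 to 0.70 (limma adjusted p = 0.94). Its sign turned in 5 of 15 alternative settings, so it has no settled direction.

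Nbl1 had levels of 4.44, 5.07 and 4.88 in the outer interzone, against 5.65, 5.73 and 5.43 in the intermediate (chr4:138638223-138638282, minus strand). Every outer value was below every intermediate value. The difference of -0.81 (SE 0.21, 95% interval -1.32 to -0.30) did not pass (limma adjusted p = 0.0941). It passed with normexp background correction (-0.89, adjusted p = 0.0264) and when slide was a block (-1.16, adjusted p = 0.0444), while within slide 1 it was -1.16 (adjusted p = 0.0593). Both slide values set outer array 1 alone, the dimmest array, against the intermediate arrays.

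**Figure D2:**
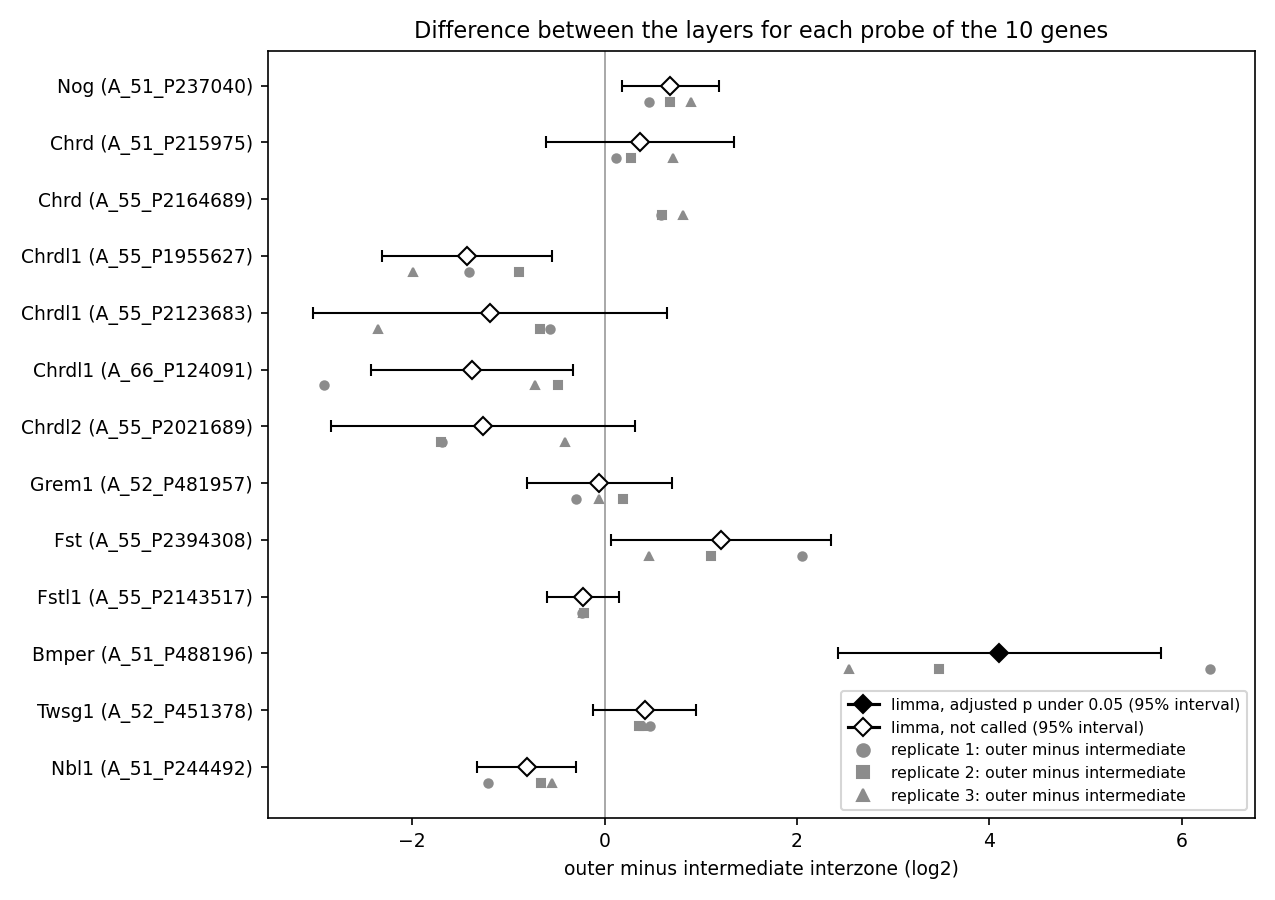
Difference of each of the 13 probes of the 10 genes (x axis, log2, outer minus intermediate). Diamonds with bars are limma estimates with 95% intervals from the fit over all probes (filled past adjusted p 0.05), grey marks are the 3 differences between same-numbered arrays, and the second Chrd probe, not tested, has grey marks alone; the filled diamond is Bmper, with pairs at 6.29, 3.48 and 2.54.

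Follistatin binds activins with high affinity and several BMPs more weakly. Fst had levels of 1.35, 2.15 and 1.33 in the outer interzone, against -0.70, 1.04 and 0.87 in the intermediate (chr13:115243565-115243624, minus strand). The layers did not overlap, and intermediate array 1 was the lowest by more than 1 log2 unit. The difference of 1.21 (SE 0.49, 95% interval 0.05 to 2.36) did not pass (limma adjusted p = 0.219), and it was positive in all 15 alternative settings (0.65 to 1.52). As for Nog, the filter changes, probe averaging and blocking on replicate number leave this estimate unchanged by design and cannot test its direction.

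Fstl1 encodes a secreted glycoprotein with a follistatin-like domain, required for normal skeletal and lung development in mice. Its levels were 7.85, 7.83 and 7.72 in the outer interzone, against 8.08, 8.05 and 7.95 in the intermediate (chr16:37836492-37836551, plus strand). Each layer had an SD of 0.07, and the outer values all lay below the intermediate ones. The difference was -0.23 (95% interval -0.59 to 0.14, limma adjusted p = 0.439). It was -0.47 with quantile normalization, -0.45 with normexp and -0.62 with each array scaled to its median (95% interval -1.14 to -0.09), and passed in 0 of 15 alternative settings.

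Twisted gastrulation, the product of Twsg1, forms a complex with chordin and BMPs and also promotes the cleavage of chordin. Its levels were 2.97, 3.42 and 3.03 in the outer interzone, against 2.50, 3.06 and 2.62 in the intermediate (chr17:66272751-66272810, minus strand). The layers overlapped, while within same-numbered arrays the difference was 0.48, 0.36 and 0.41. The fitted difference was 0.42 (95% interval -0.11 to 0.94, limma adjusted p = 0.333), and 0.02 when each array was scaled to its median. Across the list, 9 of 10 genes had the same sign in all 3 same-numbered pairs (5 higher, 4 lower), against 59.5% of all genes.

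**Figure D3:**
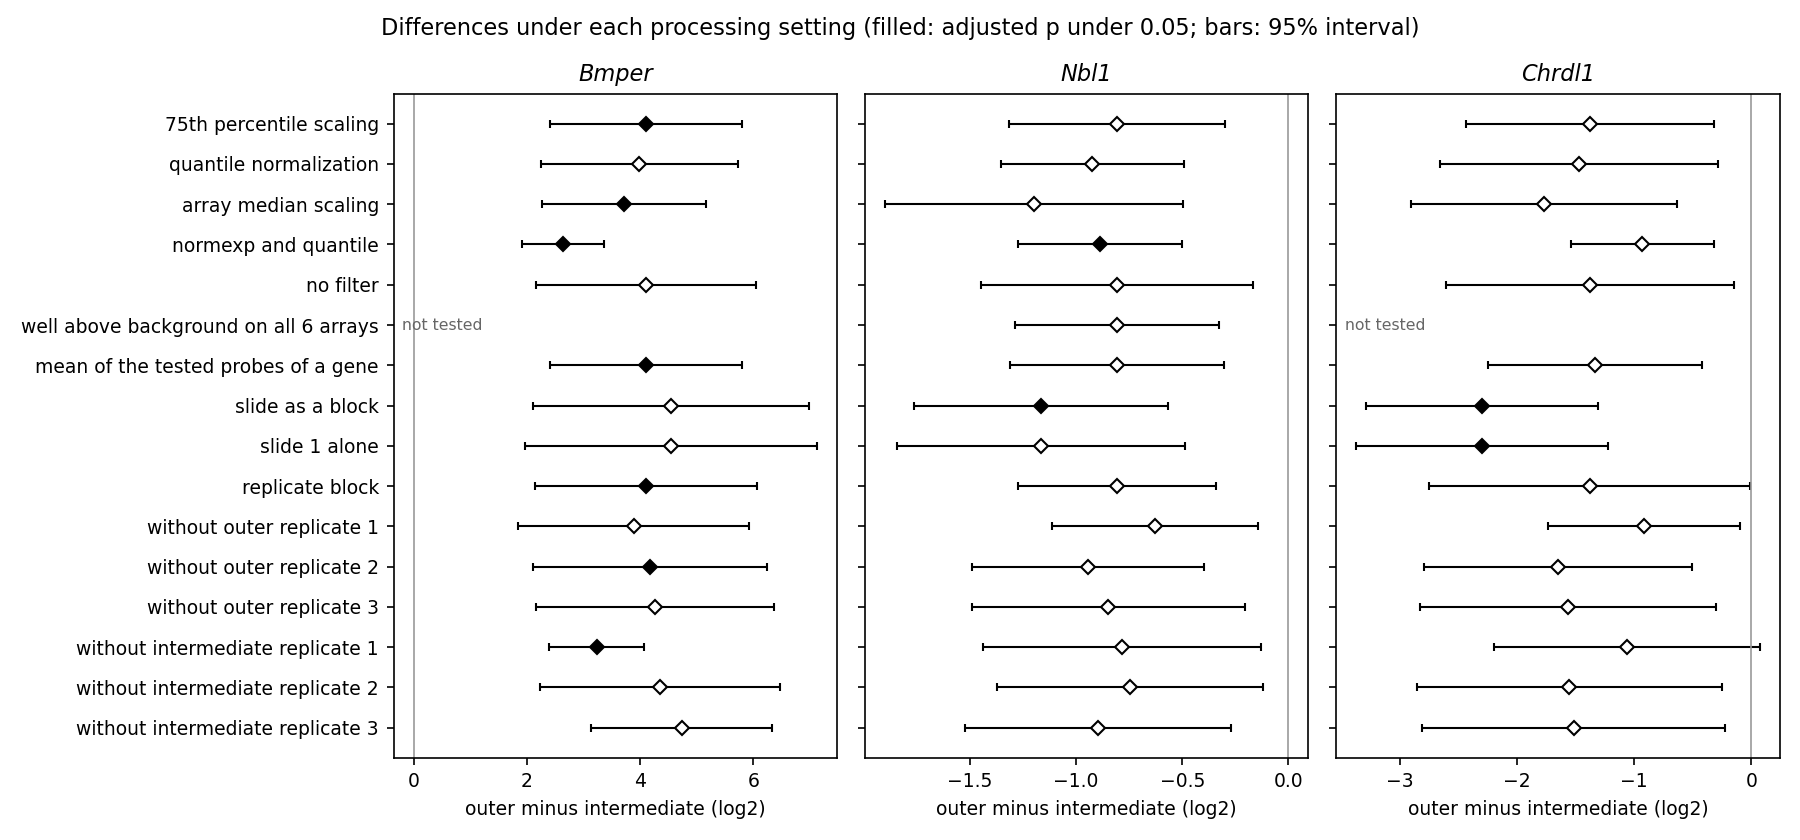
Difference (x axis, log2, outer minus intermediate, own range per panel) of Bmper, Nbl1 and Chrdl1, the 3 genes that passed in any setting, under the reported setting (top) and each alternative, with 95% intervals and filled marks past adjusted p 0.05. Bmper stays positive at 2.64 to 4.73 and passes in 6 of 14 alternatives, while Nbl1 and Chrdl1 stay negative and each pass in 2.

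The partners of these proteins were read from lists of BMP pathway genes. Of 66 listed genes 53 were tested, and 5 rose and 2 fell in the outer interzone, with a median difference of 0.06. Over all genes tested, 1.57% rose and 2.48% fell, with a median difference of 0.10. Among 11 tested ligands, Bmp5 rose, at 0.36, -0.18 and 0.10 in the outer interzone, against -4.35, -3.59 and -3.70 in the intermediate (difference 3.97, SE 0.26, limma adjusted p = 0.00433). The groups lay far apart, and intermediate signal was well above background on 2 of 3 arrays. Bmp5 thus entered the test through the outer interzone, and its difference was 1.85 with normexp background correction. Bmp2 rose by 1.94 (adjusted p = 0.0182) and Gdf6, a joint ligand related to Gdf5, fell by 1.77 (adjusted p = 0.0167). Gdf6 was above background on 2 of 3 outer arrays and entered the test through the intermediate interzone.
Of 11 tested receptors and co-receptors, the type I receptor gene Bmpr1b, through which GDF5 signals, rose by 1.75 (SE 0.24, limma adjusted p = 0.0174). Acvrl1, the type I receptor ALK1 of endothelial cells, fell by 1.40 (SE 0.18, limma adjusted p = 0.0159). Among 9 tested genes of other modulators, Sostdc1, an antagonist of BMP and Wnt signals, rose by 4.23 (SE 0.45, limma adjusted p = 0.00889) and the other 8 did not pass. Among 15 Smad and target genes, Id4, whose product inhibits basic helix-loop-helix factors, rose by 4.36 (SE 0.42, limma adjusted p = 0.00741) and the other 14 did not pass. The Id4 signal cleared background on 2 of 3 intermediate arrays, so Id4 entered the test through the outer interzone. Its difference was 2.37 with normexp background correction. Bmp2, Bmpr1b, Acvrl1 and Gdf6 lost their calls without outer array 3, intermediate array 1 or intermediate array 3, and Sostdc1 without intermediate array 3. Within slide 1 Bmp2, Bmpr1b and Acvrl1 lost theirs.
None of the 5 activin and myostatin subunit genes passed (0 of 5). Their brightest, Inhba and Inhbb, differed by -0.44 and -0.96 (limma adjusted p = 0.631 and 0.178). Of the tolloid proteases that cut chordin, Bmp1 differed by -0.11 and Tll1 by 0.81 (limma adjusted p = 0.767 and 0.0663). Blocking on replicate number, the calls over the 53 genes came to 14, with 11 higher, Tll1 and Bmp7 among them, and 3 lower, Inhbb among them. That fit called 9.09% of all genes, 4.64% higher and 4.44% lower.

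**Figure D4:**
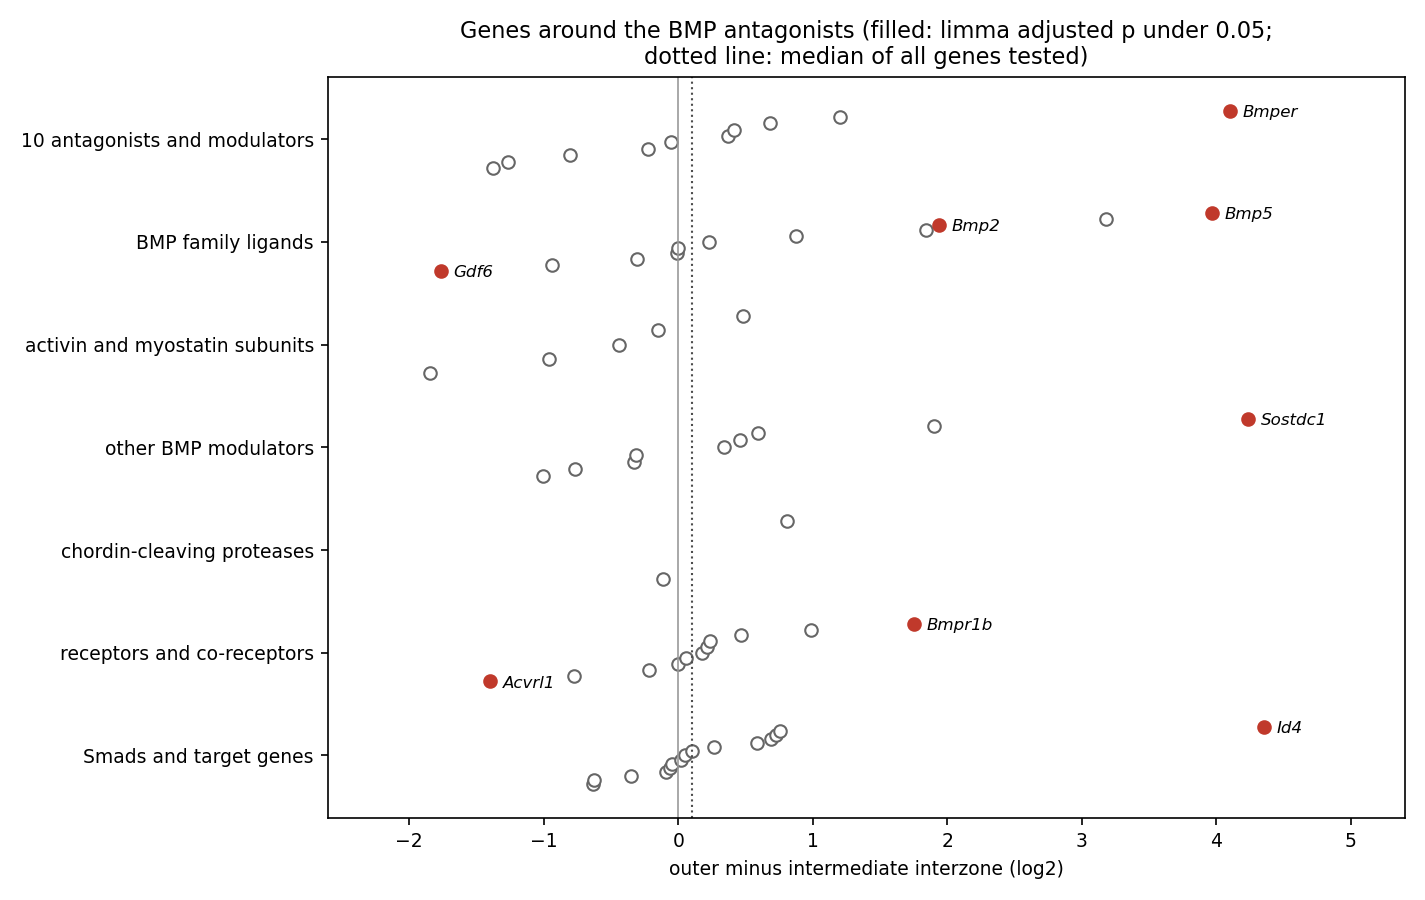
Difference (log2, outer minus intermediate) of the 53 tested BMP pathway genes by list, beside the 10 secreted antagonists and modulators, with filled points past adjusted p 0.05 and a dotted line at the median of all genes (0.10). Bmper, Bmp5, Sostdc1 and Id4 stand at 3.97 to 4.36, and Bmp7 (3.18) lies highest among those that did not pass. Bmper, Bmp5, Id4 and Bmp7 entered the test through the outer interzone alone.

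Over the 6 arrays, the genes whose centred levels lay closest to those of Bmper were Id4, Fam180a and Lbhd2, with root mean square distances of 0.54, 0.57 and 0.61 log2 units. Fam180a differed by 4.85 and Lbhd2 by 3.85, on the same arrays that placed them near Bmper.

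Markers of other cells also differed between the layers. Of 12 chondrocyte markers 10 rose in the outer interzone, where their summed level (linear, in units of the 75th percentile) was 620.1 to 913, against 82.1 to 146 in the intermediate interzone. Of 10 macrophage markers 9 fell, with sums of 6.94 to 21.0 in the outer interzone, against 66.7 to 125 in the intermediate. Of 8 endothelial markers 6 fell, while their sums overlapped, at 33.4 to 62.7 in the outer interzone, against 44.7 to 50.7 in the intermediate. Kdr, an endothelial VEGF receptor gene, differed the other way without passing, at 5.36 ± 0.64 in the outer interzone, against 4.55 ± 0.29 in the intermediate (SD, n = 3 each; difference 0.82, limma adjusted p = 0.231). Kdr was the brightest of the 8 in both layers and weighed most in the linear endothelial sums. Next was Cdh5, with mean levels of 0.48 in the outer interzone, against 2.88 in the intermediate. The overlap of the sums therefore says little about the endothelial markers other than Kdr. Chondrocyte markers moved the same way as Bmper, Bmp2, Bmp5, Bmpr1b, Sostdc1 and Id4. Macrophage markers and the endothelial markers other than Kdr moved the same way as Acvrl1 and Gdf6, Ptprc and Cldn5 without passing. The mean differences of Chrdl1, Chrdl2, Fstl1, Nbl1 and Grem1 were also negative, but none of these members passed and Grem1 had no settled direction. The part of these cell types in these values was not tested. Among the markers that passed, Matn1 and Matn3 entered the test through the outer interzone alone. C1qa, C1qc, Adgre1, Mrc1, Cx3cr1, Tie1, Tek and Emcn entered it through the intermediate interzone alone. The filter thus bears on the direction of these markers. Of 8 interzone markers 1 rose, and their sums overlapped between the layers.
None of the tested markers of skeletal muscle (0 of 7), tendon (0 of 6), osteoblast and perichondrium (0 of 2), epidermis (0 of 6), erythroid cells (0 of 5) or Schwann cells (0 of 1) passed. Their medians were -0.80, -0.78, 0.03, -0.03, -2.17 and -2.45. The osteoblast genes Runx2 and Bglap and the Schwann cell gene Erbb3 were well above background on 0 arrays. Erythroid sums ranged from 51.7 to 591 in the outer interzone, against 437 to 1039 in the intermediate.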

How the data were processed

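RNA of the outer and intermediate interzone (3 embryos each) was read on 6 1-colour arrays. The deposited files hold spot intensities, and per the file headers the authors' processed signal, used here, came from Agilent Feature Extraction, version 10.7.3.1. A second deposited table, from which no value is printed, holds the same signals divided by 1 constant per array, so that each column median is 1 as a ratio. Partek 6.11.0321 is named in the submitters' processing notes.

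Here, log2 of the processed intensity minus the log2 of each array's 75th percentile was taken. Spots of a probe were averaged without outlier-flagged ones, and 9 of 55681 probes were left without a value. Probes well above background on all 3 arrays of a layer were tested (23885), and a gene is its brightest tested probe (18004). limma 3.58.1 in R 4.3.3 (lmFit, eBayes, two-sided, no covariate) gave differences, Benjamini-Hochberg adjusted over all genes at 0.05. The fit was tested on simulated data. Other scalings, normexp, filters, probe rules, blocks and single left-out arrays were alternatives. For 26756 probes the accession was found among RefSeq accessions of GRCm38.p6 and gave the symbol, for names only.

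The members, pathway lists and marker lists (interzone, chondrocyte, macrophage, endothelium, skeletal muscle, tendon, osteoblast, epidermis, erythroid, Schwann cell) were chosen with earlier results of these data known. Beside the members, up to 4 passing genes per pathway list were named, or the 2 brightest where none passed. Gdf5 and Col2a1 were named as tissue checks, along with the 3 genes most like the passing member. Bmp7, Kdr and the markers without clear signal were named after their values were seen. Same-numbered outer and intermediate arrays deviated together (correlations of 0.56, 0.48 and 0.37 for replicates 1, 2 and 3), so the numbers may pair the samples, and the labels do not say whether a number is 1 embryo.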

Additional observations from a re-analysis of the deposited data

How the results depend on the processing

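Of 18004 genes 729 passed as reported. That number was 451 with quantile normalization, 1096 with each array scaled to its median, 460 with probes well above background on all 6 arrays, 1215 with slide as a block, 1369 within slide 1, 1636 with the replicate block, and 65 to 1101 when 1 array was left out (88 without outer array 3, 94 without intermediate array 1, 65 without intermediate array 3). With no filter limma called 0 genes, with 4268 at an unadjusted p under 0.05. The 1 member that rose, Bmper, lost its call, leaving 0, with quantile normalization (3.99, adjusted p = 0.0505), no filter (adjusted p = 0.155), slide as a block or slide 1 alone, and 0 to 1 members rose when 1 array was left out. It was not tested with the filter on all 6 arrays, which left 0. Members that fell, 0 as reported, numbered 1 with normexp (Nbl1), 2 with slide as a block (Chrdl1, Nbl1) and 1 within slide 1 (Chrdl1). Member probes past the threshold, 1 as reported, numbered 0 with quantile normalization, no filter and the filter on all 6 arrays, 2 with median scaling, normexp and the replicate block, 3 with slide as a block, and 0 to 1 without single arrays. The 7 BMP pathway calls became 11 with normexp, 0 with no filter, 4 with the filter on all 6 arrays, 14 with the replicate block, and 2 to 8 without single arrays. Bmper kept its call with the replicate block (adjusted p = 0.0453), and no other member gained one in that fit over genes. Chrd turned to -0.023 with median scaling, and Grem1 to 0.33 with slide as a block and within slide 1, and it ran from -0.28 to 0.26 without single arrays (positive without outer array 2, outer array 3 or intermediate array 1). The median of all genes was 0.10 as reported, -0.29 with median scaling and 0.44 with no filter. Median scaling gave 158 genes higher and 938 lower in the outer interzone, against 282 and 447 as reported. The causes of these changes were not tested. Signal over background limits Chrd, Chrdl1 and Chrdl2 on outer array 1 and Bmper on intermediate array 1. No source says that same-numbered samples share an embryo, and with 3 arrays per layer precision is low.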
